A study of Homo sapiens with 6 samples.

Results

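Autophagy encloses part of the cytoplasm in a double membrane, the autophagosome, and delivers it to the lysosome for breakdown. A kinase complex built around ULK1 starts the process, a lipid kinase complex marks the membrane, lipid carriers enlarge it, and 2 linked conjugation reactions attach Atg8-family proteins (the LC3 and GABARAP proteins) to its lipids. Cargo receptors bind those proteins and bring in protein aggregates or mitochondria. In neurons this route is known for clearing aggregated proteins, tau among them.

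The genes described here are 37 genes of this machinery, taken from a list of symbols and matched to the rows of a read count table. All 37 were found among its 19610 gene rows, and all 37 passed the filter on low counts that left 12196 genes for testing. The list holds 5 initiation genes, 7 genes of the class III PI3-kinase complexes and their regulators, 5 genes of membrane supply, 8 conjugation genes, 5 Atg8-family genes and 7 cargo receptor genes. Counts of single members ranged from 17 to 2873 per library.

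The cells were SH-SY5Y, an established human neuroblastoma line, with a genotype labelled WT in all samples. One group of 3 libraries (SGC707 A, B and C) was made from cells exposed to SGC707, which inhibits the arginine methyltransferase PRMT3, and the other 3 (DMSO A, B and C) from cells exposed to the solvent DMSO. The study's question concerned the inhibitor's action on MIR448, IGF1R and tau phosphorylation. The sources used here give neither dose nor duration, nor whether the lettered replicates were separate cultures. The p-values therefore measure spread among libraries that may differ for technical reasons alone.

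Total counts were 11658728 to 15437602 per library. Mitochondrially encoded genes took 46.7% to 60.7% of the counts with DMSO and 24.3% to 37.7% with SGC707. Levels are normalised CPM: counts scaled to library size with TMM factors, which assume that most genes do not differ between libraries. Where 3 values are given for a group, they are those of replicates A, B and C in that order. In bulk RNA, fewer cells that express a gene and less of its RNA per cell cannot be told apart. Of 12 markers of adrenergic neuroblastoma cells, 11 were detected and TH, the enzyme that opens catecholamine synthesis, was at 0 in all 6 libraries. Their summed level was 5695 to 7047 normalised CPM with DMSO and 4459 to 5342 with SGC707. The 12 markers of epithelial, glial, fibroblast, immune and endothelial cells summed to 10.6 to 15.4 in all libraries, with SOX10 and PTPRC at 0. The part of the mitochondrial share and of the marker levels in the results on autophagy genes was not tested.

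SGC707 C stood apart from SGC707 A and B in a trend with transcript GC content that covers the autophagy genes too, so results are given with and without it. No chi-square comparison of replicates agreed within sampling noise (at least 11.9 per degree of freedom), and each library was kept as a sample.

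No autophagy gene passed the test between SGC707 and DMSO. edgeR's quasi-likelihood test called 0 of the 37 at an adjusted p under 0.05, where it called 0.0246% of all tested genes, 3 of 12196. At an unadjusted p under 0.05 there was 1 member, GABARAPL2, where 12.8% of all tested genes lay under that level. DESeq2 and limma-voom also called 0 members at an adjusted p under 0.05, where they called 2.39% and 0.0164% of all genes. Each had 1 member at an unadjusted p under 0.05, a level for which their share of all genes is not given here. Library weights in limma-voom, and scaling by library totals alone, called 8 and 6 members, or 21.6% and 16.2%, where they called 28.2% and 21.4% of all genes. Log2 fold changes (SGC707 against DMSO) ran from -0.46 in OPTN to 0.70 in GABARAPL2. They were positive in 23 members and negative in 14, with a median of 0.09, beside a median of 0.02 and a positive share of 52.8% over all tested genes. With library totals alone, which moved the median of all genes to 0.69, all 37 members were positive, with a median of 0.77.

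The 95% interval of the fold change lay within 2-fold either way for 31 of the 37 members. It reached past 2-fold for the other 6, so a change of that size lies inside their intervals. Leaving out SGC707 C, edgeR called 3 members: GABARAPL2 was higher, and RB1CC1 and TAX1BP1 were lower. These 3 are 8.11% of the members, and the same fit called 9.26% of all tested genes. The members' log2 fold change had a Spearman correlation with transcript GC content of -0.17 with all libraries and 0.34 without SGC707 C. The fit without SGC707 C is therefore not free of a trend with GC content.

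**Figure D1:**
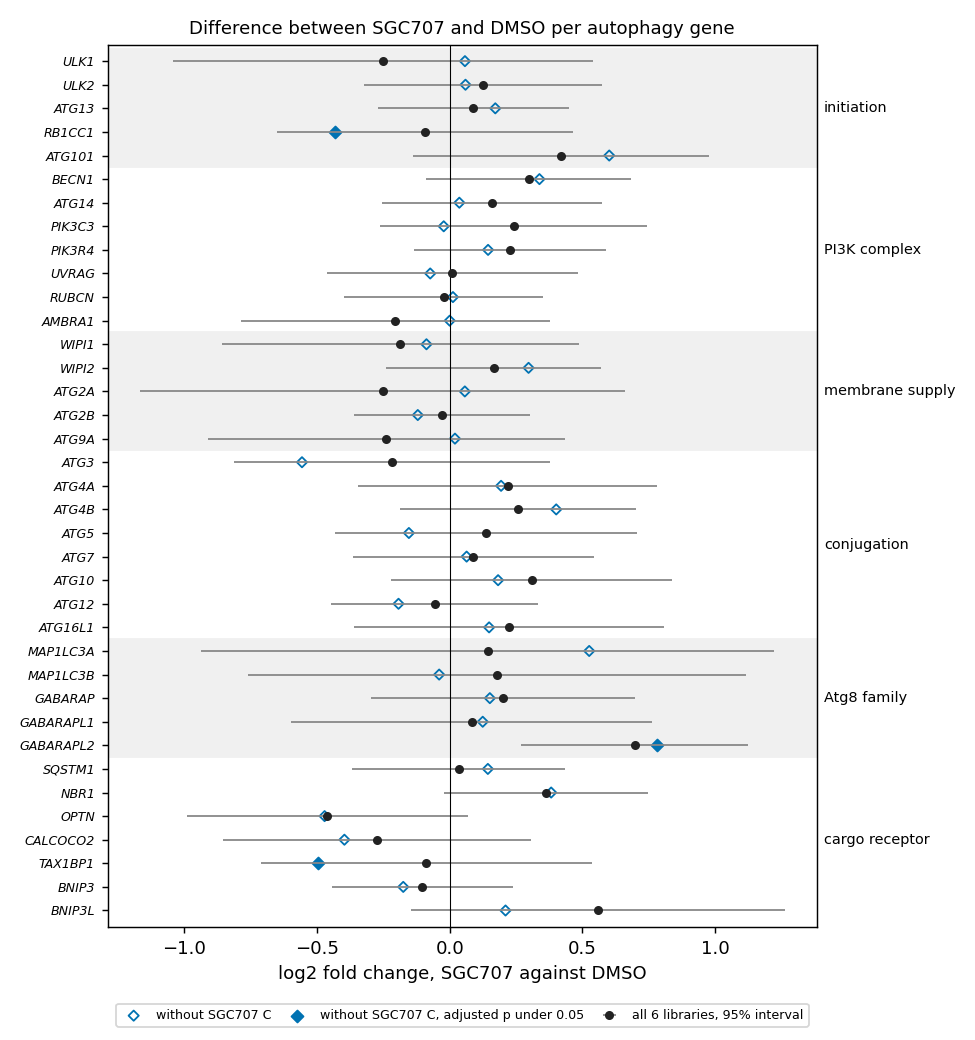
Log2 fold change of each of the 37 autophagy genes (x axis, SGC707 against DMSO), grouped by role, with black points and 95% intervals from all 6 libraries. Blue diamonds give the value without SGC707 C, filled where the edgeR adjusted p was under 0.05. The interval of GABARAPL2 is the only one that leaves out 0 with all libraries, and the diamonds of RB1CC1, ATG3 and TAX1BP1 sit well to the left of their points.

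Atg8-family proteins are fixed to the lipids of the growing membrane, where cargo receptors bind them. Per kilobase of transcript, GABARAP had the highest level of all 37 members, at 64.4 normalised CPM per kb with DMSO and 74.0 with SGC707. GABARAPL2 came next within the family at 29.9 and 48.4, followed by MAP1LC3B, which encodes the widely used autophagosome marker LC3B, at 16.2 and 18.4. MAP1LC3A (2.10 and 2.30) and GABARAPL1 (1.72 and 1.82) were far lower. MAP1LC3C had 0 counts in all libraries, a limit of 0.194 to 0.257 CPM if only counting error is considered. That limit is scaled to library totals without TMM factors, unlike the levels above.

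GABARAPL2 (chromosome 16, 75566351 to 75577881 on GRCh38) encodes GATE-16, a protein first described in transport within the Golgi. It stood at 26.3, 29.5 and 33.9 normalised CPM with DMSO and at 57.7, 45.5 and 42.3 with SGC707. All SGC707 libraries lay above all DMSO libraries, and the nearest values were 33.9 and 42.3. The log2 fold change was 0.70 (SE 0.19, 95% interval 0.27 to 1.12), from 29.9 ± 3.82 to 48.5 ± 8.12 (SD, n = 3), with an edgeR adjusted p of 0.245.

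Every alternative kept GABARAPL2 positive, from 0.54 after a correction for GC content and length to 1.37 with library totals alone. Its call depended on which libraries were fitted. The edgeR adjusted p was 0.0340 without SGC707 C, but 0.435 and 0.617 when SGC707 A or B was dropped, and 0.785, 0.853 and 0.212 when DMSO A, B or C was. DESeq2 gave an adjusted p of 0.0722 and limma-voom with library weights one of 0.00740.

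GABARAP (chromosome 17, 7240014 to 7242770) encodes a protein first found through its binding to the GABA-A receptor. It stood at 138.7, 77.6 and 99.6 normalised CPM with DMSO and 112.2, 122.2 and 128.4 with SGC707. The DMSO libraries spread more widely than the SGC707 ones and enclosed all 3 of them (log2 fold change 0.20, 95% interval -0.30 to 0.70, edgeR adjusted p = 0.732).

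MAP1LC3B (chromosome 16, 87383995 to 87404779) had its lowest values in DMSO A and SGC707 A, though the letters are not stated to pair libraries. It stood at 22.6, 52.3 and 56.1 normalised CPM with DMSO and at 27.3, 58.0 and 63.1 with SGC707. Both A libraries were low and the other 4 were close together, so the spread within each group was far larger than the difference of the means (log2 fold change 0.18, 95% interval -0.76 to 1.12, edgeR adjusted p = 0.889). The near-identical copy MAP1LC3B2, which can share reads with it, had 13 to 24 counts in all 6 libraries, against 237 to 922 for MAP1LC3B. Leaving out DMSO A gave MAP1LC3B a log2 fold change of -0.13 and leaving out SGC707 A gave 0.47.

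MAP1LC3A stood at 3.62, 3.13 and 3.15 normalised CPM with DMSO and 5.26, 4.28 and 1.32 with SGC707. SGC707 A and B lay above the DMSO range and SGC707 C below it, and the log2 fold change was 0.14 with all libraries and 0.53 without SGC707 C (edgeR adjusted p = 0.924 and 0.175). GABARAPL1 stood at 2.96, 4.99 and 3.87 with DMSO and 4.95, 3.65 and 3.90 with SGC707, with all SGC707 values inside the DMSO range (log2 fold change 0.08, edgeR adjusted p = 0.932).

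Summed per kilobase over the 5 genes, the family stood at 123.1, 100.6 and 119.4 with DMSO and 141.9, 146.1 and 146.9 with SGC707. GABARAPL2 made up 26.3% ± 4.35 of that sum with DMSO and 33.5% ± 6.26 with SGC707 (SD, n = 3), with overlapping values in single libraries, 21.3% to 29.3% against 28.8% to 40.6%. GABARAP made up 55.7% ± 11.6 and 51.0% ± 2.57.

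**Figure D2:**
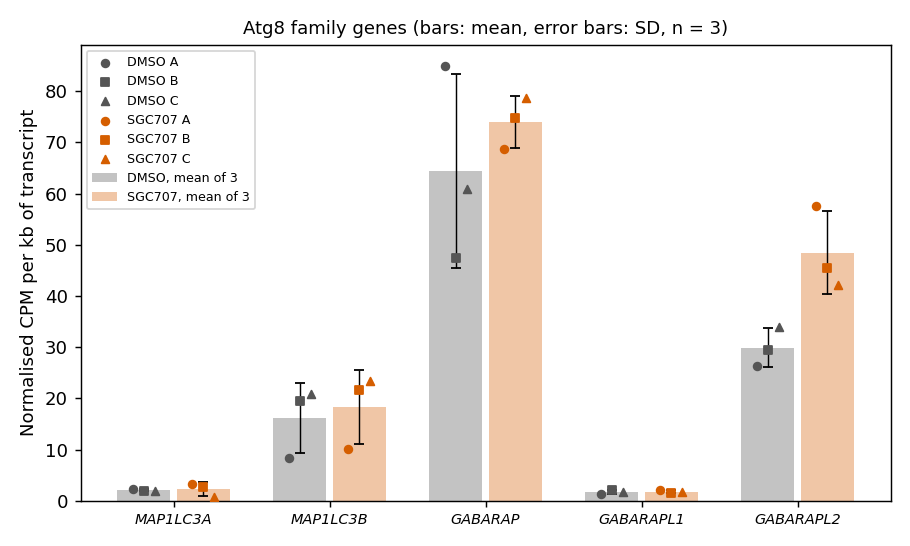
Levels of the 5 Atg8-family genes in normalised CPM per kilobase of the longest coding transcript (y axis), with bars for the mean of 3 libraries, error bars for the SD and points for single libraries. GABARAPL2 is the gene of the family whose SGC707 points (42.2 to 57.6) all lie above its DMSO points (26.3 to 33.9), and the round points of MAP1LC3B, the A libraries, lie low in both groups.

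Initiation genes encode the ULK kinase complex, which is switched on when nutrients run short. ATG101 (chromosome 12, 52069246 to 52077494), a subunit that steadies ATG13, stood at 8.68, 10.1 and 10.1 normalised CPM with DMSO and 15.2, 14.0 and 9.27 with SGC707. SGC707 A and B were above the DMSO libraries and SGC707 C was among them. The log2 fold change was 0.42 (95% interval -0.14 to 0.98, edgeR adjusted p = 0.506) and 0.60 without SGC707 C (edgeR adjusted p = 0.0595).

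RB1CC1 (chromosome 8, 52622456 to 52745843) encodes FIP200, the scaffold of the complex, and had the highest level per length of the initiation genes. It stood at 114.6, 111.2 and 103.5 normalised CPM with DMSO and 77.8, 85.5 and 145.7 with SGC707. SGC707 A and B were below every DMSO library and SGC707 C above every one. With all libraries the log2 fold change was -0.09 (95% interval -0.65 to 0.46, edgeR adjusted p = 0.907), and without SGC707 C it was -0.43 (edgeR adjusted p = 0.0444).

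The kinase genes ULK1 (log2 fold change -0.25) and ULK2 (0.13) and ATG13 (0.09), which encodes the subunit that links the kinase to the scaffold, had edgeR adjusted p from 0.792 to 0.852. ULK1 was 12.7 in SGC707 C against 24.1 to 35.5 in the other 5 libraries, and its log2 fold change without that library was 0.06.

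The class III PI3-kinase complexes make phosphatidylinositol 3-phosphate on the growing membrane. BECN1 (chromosome 17, 42810134 to 42833350), the gene of the Beclin 1 subunit, stood at 23.7, 20.5 and 19.7 normalised CPM with DMSO and 26.6, 27.4 and 24.6 with SGC707. The groups did not overlap, and the nearest values were 23.7 and 24.6 (log2 fold change 0.30, 95% interval -0.09 to 0.68, edgeR adjusted p = 0.502). BECN1 overlaps CNTD1 and PSME3 on the opposite strand, and whether the counting used strand was not stated in the sources used here. The same limit holds for other members, among them ATG4B, ATG10 (which overlaps RPS23), ATG12, MAP1LC3B, OPTN, TAX1BP1 and BNIP3L. GABARAP overlaps a coding gene on its own strand.

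PIK3R4, which encodes the regulatory subunit VPS15, stood at 34.2, 35.2 and 39.1 with DMSO and 37.8, 42.4 and 46.8 with SGC707, with SGC707 A inside the DMSO range (log2 fold change 0.23, edgeR adjusted p = 0.579). PIK3C3, the lipid kinase VPS34 itself, stood at 45.2, 44.1 and 48.8 and at 42.2, 48.7 and 72.5 in the same order. Only SGC707 C was above the DMSO range, and the log2 fold change was 0.24 with it and -0.02 without it (edgeR adjusted p = 0.674 and 0.919). The other 4 members were ATG14 (0.16), which directs the complex to autophagosomes, UVRAG (0.01), which directs it to endosomes, the inhibitor RUBCN (-0.02) and the Beclin 1 partner AMBRA1 (-0.20), with edgeR adjusted p from 0.743 to 0.991.

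Membrane supply had 1 positive and 4 negative members. WIPI2 (chromosome 7, 5190188 to 5233826), whose protein reads phosphatidylinositol 3-phosphate and recruits ATG16L1, stood at 49.8, 45.1 and 51.9 normalised CPM with DMSO and 60.5, 60.1 and 44.0 with SGC707. SGC707 A and B were above and SGC707 C below all DMSO libraries (log2 fold change 0.17, edgeR adjusted p = 0.727; 0.30 without SGC707 C, edgeR adjusted p = 0.125). The lipid transfer genes ATG2A (-0.25) and ATG2B (-0.03), the scramblase gene ATG9A (-0.24) and WIPI1 (-0.19) had edgeR adjusted p from 0.763 to 0.954. ATG2A and ATG9A were lowest in SGC707 C, at 3.66 and 9.04, and their log2 fold changes without it were 0.06 and 0.02.

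Conjugation genes encode the enzymes that mature and attach the Atg8 proteins. ATG4B (chromosome 2, 241637213 to 241673857), a protease that trims Atg8 precursors, stood at 22.8, 24.7 and 24.8 normalised CPM with DMSO and 31.8, 32.1 and 22.4 with SGC707. SGC707 A and B were above and SGC707 C below the DMSO libraries (log2 fold change 0.26, edgeR adjusted p = 0.608; 0.40 without SGC707 C, edgeR adjusted p = 0.0768). ATG10, which encodes the enzyme that joins ATG12 to ATG5, stood at 6.20, 7.23 and 7.47 with DMSO and 7.13, 8.74 and 10.1 with SGC707, with overlap at SGC707 A (log2 fold change 0.31, edgeR adjusted p = 0.603).

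ATG12, the ubiquitin-like partner of ATG5 and the conjugation gene with the highest level per length, stood at 65.6, 62.4 and 65.5 with DMSO and 50.5, 62.6 and 72.9 with SGC707. The SGC707 values spread to both sides of the DMSO values (log2 fold change -0.06, edgeR adjusted p = 0.918). The remaining conjugation genes were ATG3 (-0.22), the enzyme that attaches Atg8 proteins to lipid, ATG7 (0.09), which activates them, ATG5 (0.14), ATG16L1 (0.22) and the protease gene ATG4A (0.22), with edgeR adjusted p from 0.740 to 0.886. ATG4A had groups that did not overlap, at 3.42 to 4.48 with DMSO and 4.53 to 4.83 with SGC707, on 38 to 75 counts. ATG3 stood at -0.56 without SGC707 C (edgeR adjusted p = 0.0517).

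Cargo receptors held the lowest fold change of the machinery (OPTN) and, after GABARAPL2, the highest (BNIP3L). NBR1 (chromosome 17, 43170481 to 43211689), a receptor for ubiquitinated proteins and peroxisomes, stood at 61.0, 51.7 and 73.8 normalised CPM with DMSO and 81.2, 81.5 and 77.3 with SGC707. The SGC707 libraries lay close together and above all DMSO libraries (62.2 ± 11.1 against 80.0 ± 2.32, SD, n = 3; log2 fold change 0.36, 95% interval -0.02 to 0.75, edgeR adjusted p = 0.416).

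OPTN (chromosome 10, 13099449 to 13138308), which encodes optineurin, a receptor for damaged mitochondria, stood at 10.5, 7.63 and 8.01 with DMSO and 5.74, 6.86 and 6.39 with SGC707. All SGC707 values lay below all DMSO values (log2 fold change -0.46, 95% interval -0.99 to 0.07, edgeR adjusted p = 0.456). Values without 1 library ran from -0.55 to -0.31.

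BNIP3L (chromosome 8, 26382898 to 26505636) encodes NIX, a receptor on the outer mitochondrial membrane. It stood at 57.2, 49.96 and 59.8 normalised CPM with DMSO and 82.9, 46.3 and 116.6 with SGC707. SGC707 B was below every DMSO library and SGC707 A and C above, which gave a log2 fold change of 0.56 (95% interval from -0.15 to 1.26, edgeR adjusted p = 0.496) that was 0.21 without SGC707 C and 0.84 without SGC707 B. Its relative BNIP3, also a mitochondrial receptor, stood at -0.10 in log2 fold change (edgeR adjusted p = 0.803). The annotation names 39 pseudogenes of BNIP3, which can share its reads.

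TAX1BP1 (chromosome 7, 27739331 to 27844564), a receptor for ubiquitinated aggregates, had the highest level per length among the receptors. It stood at 163.7, 154.5 and 161.5 with DMSO and 108.3, 119.2 and 223.9 with SGC707. SGC707 A and B were well below and SGC707 C well above the narrow DMSO range. The log2 fold change was -0.09 (95% interval -0.71 to 0.53, edgeR adjusted p = 0.920) and -0.50 without SGC707 C (edgeR adjusted p = 0.0320). SQSTM1, which encodes the receptor p62, stood at 35.6 to 43.3 with DMSO and 33.7 to 45.1 with SGC707 (log2 fold change 0.03, 95% interval -0.37 to 0.43, edgeR adjusted p = 0.955). CALCOCO2, which encodes NDP52, stood at -0.28 in log2 fold change (edgeR adjusted p = 0.678).

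**Figure D3:**
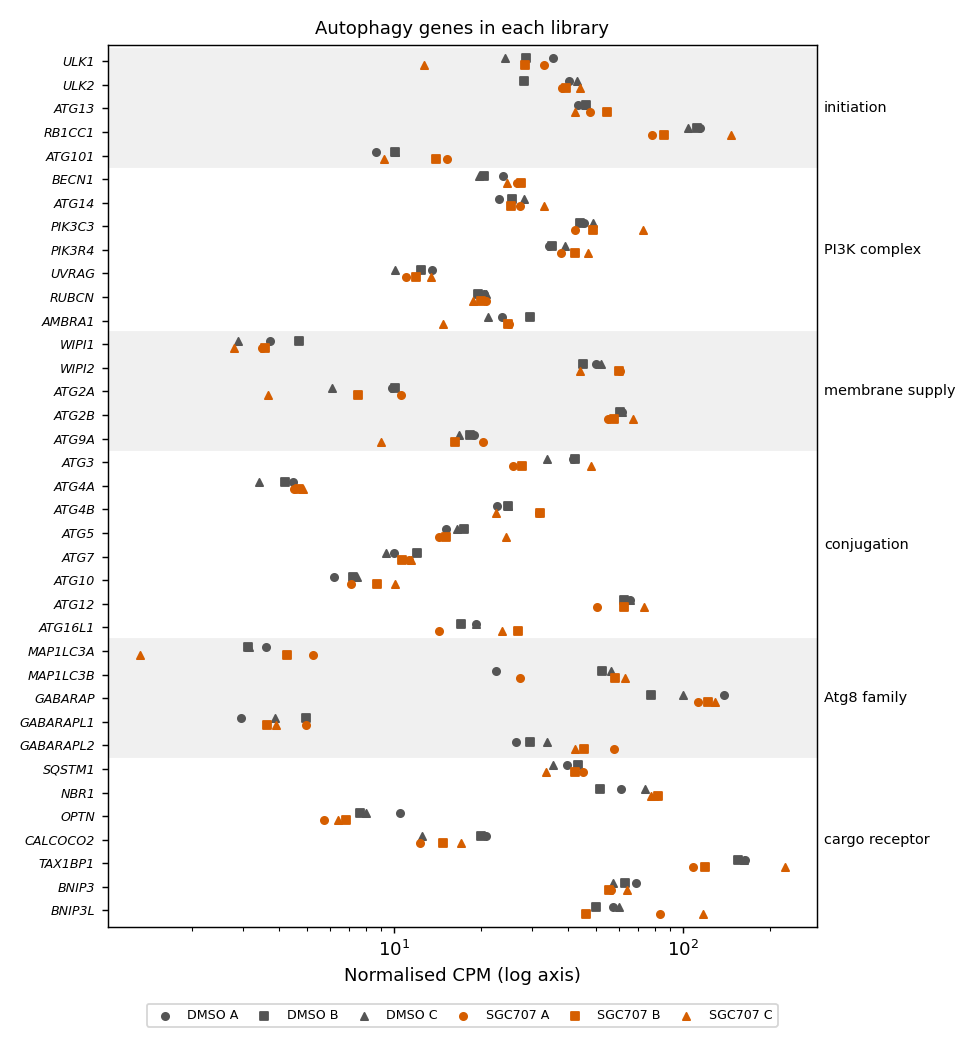
Normalised CPM (x axis, log scale) of each autophagy gene in each of the 6 libraries, with DMSO in grey and SGC707 in orange, and marker shapes for replicates A, B and C. In RB1CC1 and TAX1BP1 the SGC707 triangle (replicate C) lies to the right of all DMSO points and the other SGC707 points to the left, and in ULK1, ATG2A, ATG9A and MAP1LC3A the SGC707 triangle is the lowest point.

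The groups did not overlap in 5 of the 37 members, or 13.5%, where 20.6% of all tested genes did not overlap. GABARAPL2, NBR1, BECN1 and ATG4A were the 4 higher with SGC707, against 10.8% of all genes, and OPTN was the 1 lower, against 9.78%. No initiation or membrane supply gene was among them.

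Within the SGC707 group, the autophagy genes were ordered by GC content. The difference between SGC707 C and the mean of SGC707 A and B in log2 normalised CPM had a Spearman correlation of -0.80 with the GC content of the longest coding transcript over the 37 members, and of -0.77 over 12112 tested genes. These points share the same 3 libraries, and the value is a description. The matching difference among the DMSO libraries gave -0.21 over the members. Taken against each gene's mean over all libraries, levels of the tested genes correlated with GC content at 0.52, 0.34 and -0.76 in SGC707 A, B and C. In DMSO A, B and C the values were 0.23, 0.17 and -0.13. The mean includes SGC707 C, so the values of the libraries depend on each other. Of 15 members with a GC content under 45%, 13 were higher in SGC707 C, with a median difference of 0.34, and of 8 members at 55% or more, 0 were higher, with a median of -0.87. The bounds of 45% and 55% were chosen after the values were seen. The extremes were MAP1LC3A (GC 64.5%, difference -1.73), ULK1 (64.2%, -1.26) and ATG2A (64.0%, -1.25) on one side and TAX1BP1 (48.0%, 0.98), BNIP3L (38.9%, 0.91), ATG3 (39.9%, 0.84) and RB1CC1 (37.6%, 0.84) on the other.

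GABARAPL2 departed from that order, with a GC content of 44.6% and a difference of -0.28, but it was not alone. NBR1 (44.9%, -0.07) was also below 0. TAX1BP1 (48.0%, 0.98) and MAP1LC3B (48.7%, 0.66) lay far above the median of 0.10 for members at 45% to 55%. After a correction of every library for GC content and length, 5 members had an unadjusted p under 0.05 in edgeR, where 22.8% of all tested genes did: GABARAPL2 (log2 fold change 0.54), ATG101 (0.42), ATG4B (0.40) and NBR1 (0.37) were positive and OPTN (-0.46) negative. None passed after adjustment, where 0.41% of all genes did, and the lowest edgeR adjusted p was 0.0926, that of GABARAPL2. In the corrected fit RB1CC1 stood at -0.12 and TAX1BP1 at -0.09, close to their values with all libraries before correction.

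**Figure D4:**
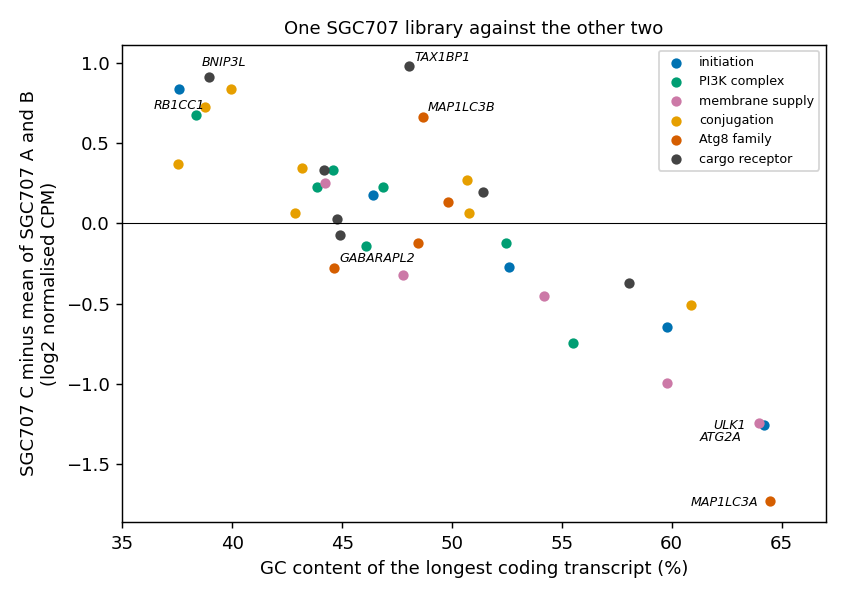
Difference between SGC707 C and the mean of SGC707 A and B (y axis, log2 normalised CPM) against the GC content of the longest coding transcript (x axis, percent) for the 37 autophagy genes, coloured by role. Points fall from upper left to lower right (Spearman -0.80), with all 8 genes at 55% GC or more below 0.

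Other genes of the pathway came from 4 lists outside the 37 members, and 0 of their 68 tested genes passed in edgeR. Of the 68, 10 had an unadjusted p under 0.05, 3 higher and 7 lower. Of all 12196 tested genes, 12.8% lay under that level, 685 higher and 870 lower. Of 20 upstream kinases and transcription factors, 11 were positive and 9 negative (median 0.06), and the latter included RPTOR (-0.45, edgeR adjusted p = 0.388), the mTORC1 scaffold. Of 13 further core genes and paralogs, 6 were positive and 7 negative (median -0.03), led by TECPR2 (-0.71, edgeR adjusted p = 0.207) and NRBF2 (0.60, edgeR adjusted p = 0.376), a subunit of the PI3-kinase complex.

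Of 16 genes of fusion with the lysosome, 8 were positive and 8 negative (median 0.09). RAB7A, the GTPase of late endosomes and lysosomes, stood at 481.2, 523.6 and 364.5 normalised CPM with DMSO and 208.2, 214.7 and 278.2 with SGC707, without overlap (log2 fold change -0.97, edgeR adjusted p = 0.173). Of 19 genes of selective autophagy, 11 were positive and 8 negative (median 0.02), with CCPG1 (-0.56, edgeR adjusted p = 0.366) and ATL3 (0.37, edgeR adjusted p = 0.377), both receptors for the endoplasmic reticulum, at the smallest p. DESeq2 called 3 of the 72 genes it tested from the 4 lists, all lower, TECPR2 and RAB7A among them. It called 288 genes in all, or 2.39%.

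TFEB and its relatives switch on many autophagy and lysosome genes through a short element with the core CACGTG, so promoter windows of the members were searched for it. The windows, from RefSeq on GRCh38.p14, run from 250 bases before to 50 after a transcript start, and 42 of them belong to 33 of the 37 members. The core, which reads the same on both strands, was in 3 of the 42 (7.14%) and in 7.26% of all 35116 windows. The 3 windows belong to ATG3, ATG14 and BNIP3, and the stretches that hold the core are shown with it in capitals, 5′ to 3′ on the gene's strand.
ATG3 (chr3:112561963-112561992, minus strand): cctttctcacgtCACGTGccgggagagtct
ATG14 (chr14:55411834-55411863, minus strand): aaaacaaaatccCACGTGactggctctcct
BNIP3 (chr10:131982040-131982069, minus strand): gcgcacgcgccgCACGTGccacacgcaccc
The core begins 18, 21 and 134 bases before the start in these stretches, and the window of ATG3 holds a second core 6 bases into the transcript. Log2 fold changes of the 3 genes were -0.22, 0.16 and -0.10. Any part of the core in these values was not tested.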

How the data were processed

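RNA sequencing libraries of SH-SY5Y cells, 3 given DMSO and 3 given SGC707, were grouped by the treatment in the labels. The authors deposited 1 table of unscaled whole-number counts, with gene symbols as rows; HISAT2, StringTie and GRCh38 are named in the submitters' processing notes. The sources used here do not give the annotation, the strand setting or the handling of shared reads. Of the members, 16 overlap a coding gene on the opposite strand, 2 one on the same strand, and 7 have named pseudogenes, so their counts are uncertain.

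The main test was edgeR 4.0.16 under R 4.3.3, fitted to the whole table (filterByExpr with a minimum count of 10, TMM, robust glmQLFit, glmQLFTest, no covariate), with Benjamini-Hochberg adjustment over 12196 genes and a threshold of 0.05. The standard error is the log2 fold change over the square root of F. Transcript length, GC content and coordinates come from GENCODE 29 on GRCh38 (longest coding transcript); all 37 members matched directly. Alternatives used RLE factors, library totals, no mitochondrial genes, omission of the filter, a filter of 1 CPM in 3 libraries with a mean count of 50, DESeq2 1.42.0, limma 3.58.1 voom with and without library weights, a lowess correction for GC content and length (span 0.3, for genes averaging 20 counts or more), each library left out, a block for the replicate letter, and 0.01 as threshold. The members and lists were chosen with earlier results of these data known. Values in every library are given for the 10 members with the smallest p, the Atg8 family and the member of each role with the highest level per length; other genes named with such values (ULK1, ATG2A, ATG9A, ATG4A, SQSTM1, RAB7A) were chosen after their values were seen. From each list outside the members the 2 genes with the smallest p are named, apart from genes that are not reported here. On simulated counts for this comparison (12072 genes), 40.2% of 2-fold and 94.9% of 4-fold changes were called by edgeR, along with 5 unchanged genes. The simulated libraries held no trend with GC content, and their spread followed the dispersion trend over all genes rather than each gene's own. Limits for a count of 0 are 3 counts and cover counting error only.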

Additional observations from a re-analysis of the deposited data

How the results depend on the processing

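The count of 0 called members was also found with RLE factors, no mitochondrial genes, no filter, the stricter filter, DESeq2, limma-voom, the GC and length correction and a threshold of 0.01. Of all genes, the main fit called 0.0246%, DESeq2 2.39%, limma-voom 0.0164% and the GC and length correction 0.41%. At 0.01 no tested gene passed, as the lowest edgeR adjusted p of all was 0.0154. The shares for the other settings are not given here. At shares this low, a count of 0 is not particular to the members. Library totals alone called 6 members, all higher (BECN1, PIK3C3, PIK3R4, GABARAPL2, NBR1 and BNIP3L), where that scaling called 21.4% of all genes and moved the median of all genes from 0.02 to 0.69 and of the members to 0.77. Library weights called 8 members, 5 higher and 3 lower, where they called 28.2% of all genes. Leaving out 1 library gave 0 to 3 called members, with 3 only without SGC707 C, where 9.26% of all genes were called. The shares of all genes without any other library are not given here. In the 4 lists outside the members, library totals alone called 16 of 68 tested genes, where 21.4% of all genes were called. DESeq2 called 3 of 72, against 2.39% of all genes, and library weights 25 of 68, against 28.2%. With 1 library left out, 0 to 7 genes passed. The 7, of 68, were without SGC707 C, where 9.26% of all genes passed.

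Of 287 values of the 18 members named by rule under alternatives, 253 kept their direction and side of the threshold, 16 passed it and 18 changed sign; the cause was not tested. With library totals alone RB1CC1 (0.53), ATG12 (0.59), OPTN (0.21) and TAX1BP1 (0.52) turned positive, below the 0.69 shift of all genes. MAP1LC3A turned negative with the replicate block (-0.021) and limma-voom (-0.034), and BNIP3L with library weights (-0.052). Over the fits without 1 library, the log2 fold change ran from -0.43 to 0.077 in RB1CC1, -0.023 to 0.40 in PIK3C3, -0.19 to 0.074 in ATG12, -0.22 to 0.53 in MAP1LC3A, -0.13 to 0.47 in MAP1LC3B, -0.089 to 0.28 in GABARAPL1 and -0.50 to 0.10 in TAX1BP1.

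The replicate letters are not stated to pair libraries: deviations from the group means correlated at 0.08, -0.02 and 0.10 for A, B and C, and not every library correlated best with its own letter. With the letter as a replicate block 0 members passed in edgeR (lowest adjusted p = 0.323, GABARAPL2), and 0 of all genes passed. In that fit 1 member had an unadjusted p under 0.05, a level for which the share of all genes is not given here. The depth of 17 to 87 counts per library limits what can be seen for MAP1LC3A.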
